A study of Homo sapiens with 33 samples.

Results

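The 57 genes described here lie on the long arm of chromosome 5, between CDK7 and the far end of the arm, and all 57 were measured among 59428 entries of the count table. The list was made by name and position, with earlier results of these data known. All 57 passed the filter on low counts, as did 457 other genes of 5q distal to CDK7, 63 genes of 5q between the centromere and CDK7 (proximal 5q) and 119 genes of the short arm (5p). The question was whether knocking out CDK7 lowered other genes of its chromosome arm. The last comparisons used 22 other libraries, of MDA-MD-231 and MDA-MD-468 cells. These were parental, given DMSO, or given SY200, V50 or SY200/V50 at 3, 6 and 12 h. The knockout cells were MDA-MD-231, as the labels spell this triple-negative breast cancer line, and 1 library was made for each genotype and time. The CDK7-targeted libraries were CDK7 KO and CDK7/9 KO at 72 and 96 h (4 libraries). The CDK7-intact libraries were CDK9 KO, CDK1 KO and Empty vector at 72 and 96 h (6 libraries). CDK9 knockout makes up a larger share of the CDK7-targeted genotypes, and CDK1 knockout is only among the CDK7-intact ones. A comparison of these groups therefore does not isolate the knockout of CDK7. The labels do not say how the genes were knocked out, whether clones or pools were used, what the vector carried, from when the hours were counted, or whether libraries came from separate cultures. With 1 library per genotype and time, p-values rest on how far the genotypes' profiles differ between the 2 times and may measure technical spread. Poly(A) RNA was read as 3' tags, and the 10 libraries held 16985219 to 22417327 counts each. Levels are in CPM, read counts divided by the TMM-scaled library total, which are not per length and are compared here between libraries only.

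CDK7 is the kinase of the CDK-activating complex and of the transcription factor TFIIH. A nuclease that cuts a chromosome can leave the arm beyond the cut without its centromere, and, when such a fragment is lost at division, every gene on it loses a copy while genes nearer the centromere keep theirs. A lost copy of an arm usually lowers the mRNAs of its genes by a modest amount that is shared along the arm, and MDA-MB-231 is an aneuploid line in which arms are often not present in the normal number. In bulk RNA a small fall in every cell and a larger fall in a fraction of the cells cannot be told apart, nor can fewer cells of a type from less RNA per cell. The genes of distal 5q have no common function. They range from NPM1, a nucleolar ribosome factor, and LMNB1, a protein of the nuclear lamina, to APC, which restrains WNT signalling.

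The start regions of 3 members whose 4 CDK7-targeted libraries all lay below the 6 CDK7-intact ones or which passed the test are shown, as examples of distal 5q start regions from genes without a common role. Each line gives the bases before a start site, from the RefSeq promoter table on GRCh38.p14, 5' to 3' in the direction of the gene. The stretches hold no exon of GENCODE release 29, and capitals mark 3 motifs on either strand, which are CCAAT (the CCAAT box), then GGGCGG (the GC box), and TATAAA (the TATA box).
ARRDC3, chr5:91383360-91383567, minus strand: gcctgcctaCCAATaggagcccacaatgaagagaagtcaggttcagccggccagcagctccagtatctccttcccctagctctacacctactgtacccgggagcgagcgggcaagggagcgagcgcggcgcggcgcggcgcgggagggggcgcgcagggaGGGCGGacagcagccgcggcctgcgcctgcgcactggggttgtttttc
MCCC2, chr5:71587090-71587287, plus strand: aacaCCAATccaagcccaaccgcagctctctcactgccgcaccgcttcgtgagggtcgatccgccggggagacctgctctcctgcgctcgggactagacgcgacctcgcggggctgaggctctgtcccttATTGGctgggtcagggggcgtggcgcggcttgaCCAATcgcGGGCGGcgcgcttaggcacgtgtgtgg
SKP1, chr5:134177039-134177200, minus strand: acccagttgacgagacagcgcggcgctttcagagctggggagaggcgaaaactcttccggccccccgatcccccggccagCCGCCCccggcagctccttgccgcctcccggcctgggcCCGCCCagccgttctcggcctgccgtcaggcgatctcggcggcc

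Of the 57 members, 55 had an entry in the table. In the 250 bases before the start, 38 of the 55 (69.1%) held GGGCGG or its reverse complement, against 42.3% of all 27305 genes of the table. CCAAT was found in 19 of 55 (34.5%, against 33% of all genes) and TATAAA in 4 of 55 (7.27%, against 11.1%). The median GC content of the members' windows was 64.4%, against 58% for all genes. The table of all genes also holds noncoding genes, and GGGCGG is itself made only of G and C. A match is a description of the letters and not a site.

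CDK7 itself was lower in every CDK7-targeted library. It stood at 15.3 and 13.8 CPM in CDK7 KO and at 15.7 and 17.2 CPM in CDK7/9 KO at 72 and 96 h. It stood at 49.2 and 47.5 CPM in CDK9 KO, 45.6 and 47.7 CPM in CDK1 KO and 49.3 and 66.6 CPM in Empty vector. The mean of the CDK7-targeted genotypes was 3.27-fold below that of the CDK7-intact ones (log2 fold change -1.71 ± 0.09, SE, edgeR quasi-likelihood test, Benjamini-Hochberg (BH) adjusted p = 2.68e-05). CDK9, the kinase of P-TEFb, stood at 34.5 and 36.8 CPM in CDK7/9 KO and 33.4 and 36.5 CPM in CDK9 KO, against 62.1 to 74.5 CPM in the other 6 libraries. CDK1, the mitotic kinase, stood at 82.6 and 85.0 CPM in CDK1 KO, against 141 to 283 CPM elsewhere. The knocked-out gene was thus low in every library labelled with its knockout. A 3' tag need not lie in the part of the gene that was changed.

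Among the 10 libraries, Empty vector at 96 h stood apart. The median distance of a gene from its mean over the 10 libraries was 0.28 on the log2 scale there and 0.12 to 0.15 in the other 9 libraries. In that library the members' median was 0.291 above their mean, against -0.029 to 0.069 in the other 5 CDK7-intact libraries. Some of the calls that change without it, and medians of the gene sets, are also given without it. The 7 MDA-MB-231 markers had a median of 611 to 825 CPM and the 7 MDA-MB-468 markers one of 6.46 to 15.1 CPM in these libraries and the parental one. The 8 immune and blood markers summed to 6.85 to 8.55 CPM in CDK7-targeted and 6.30 to 13.8 CPM in CDK7-intact libraries, with MS4A1, a B cell gene, at 0 in all. The summed MDA-MB-468 markers were 243 to 472 CPM in CDK7-targeted and 189 to 379 CPM in CDK7-intact libraries. Mitochondrially encoded mRNAs took 3.72% to 5.41% of the counts in CDK7-targeted and 2.60% to 5.98% in CDK7-intact libraries. The part of these in the results below was not tested.

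Nearly every member was slightly lower in the CDK7-targeted libraries. The median log2 fold change of the 57 members was -0.156, a level 10.3% lower, with quartiles of -0.236 and -0.114, against a median of -0.004 over all 16783 genes tested. Of the members, 56 of 57 had a log2 fold change below 0, against 51.2% of all genes, and FER, a tyrosine kinase of cell adhesion, was the exception at 0.03 ± 0.07. At an unadjusted p under 0.05, 26 of 57 members were lower and 0 higher in edgeR, against 7.62% of all genes lower. After BH adjustment over all genes 2 members were lower, RASA1 and ARRDC3, against 0.554% of all genes. DESeq2 with the same design called these 2 and UBE2D2, of 214 genes in all. Without Empty vector at 96 h the median was -0.110 over the members, 54 of 57 members were below 0, and 16 were called lower, against 4.7% of the 17543 genes then tested. FCHO2, SCAMP1 and PPIP5K2 were the 3 above 0 then, at 0.01, 0.01 and 0.04.

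**Figure D1:**
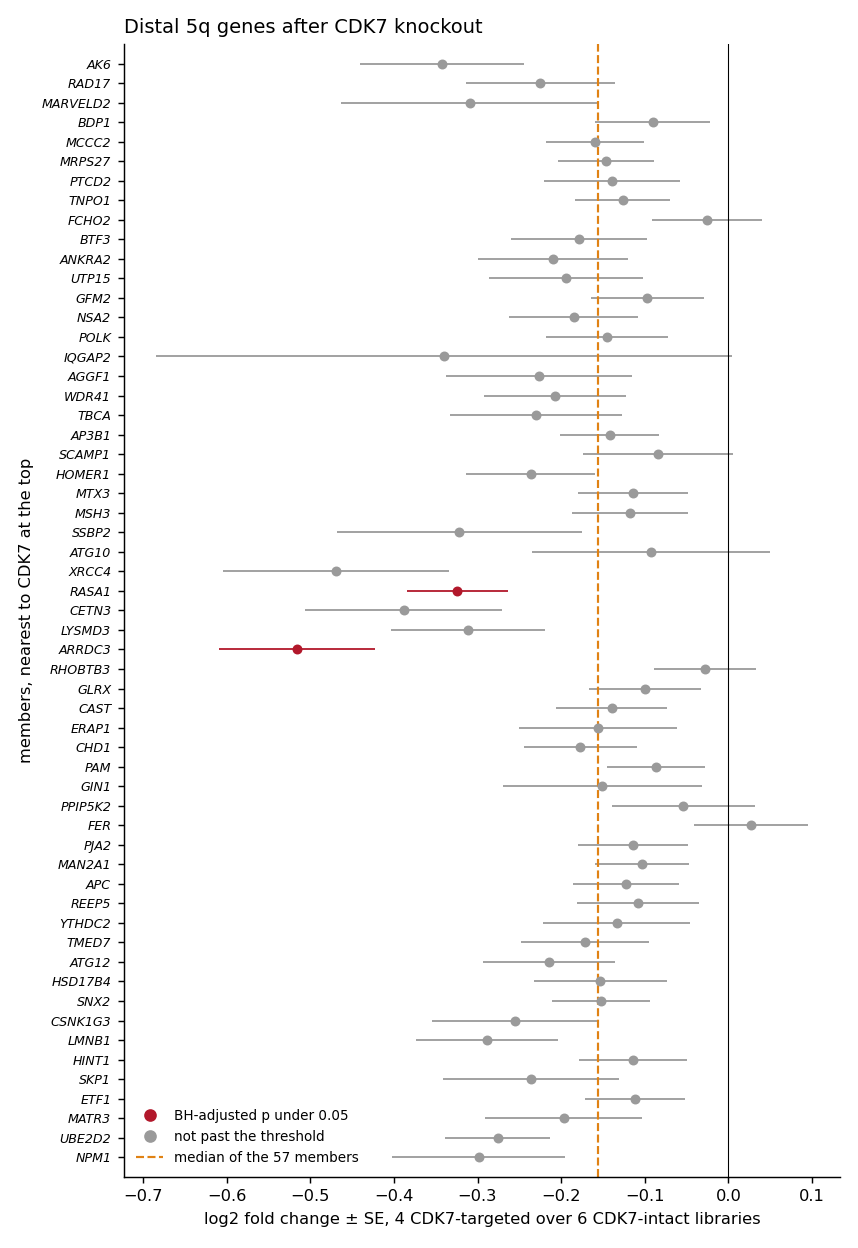
Log2 fold change of each of the 57 members between the 4 CDK7-targeted and the 6 CDK7-intact libraries (horizontal axis, points with SE), in order of distance from CDK7 down the page. All points but that of FER lie left of 0, around the dashed median of -0.156, and only RASA1 and ARRDC3 (red) passed the threshold of a BH-adjusted p under 0.05.

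The other 457 tested genes of distal 5q, which the list of members does not hold, had almost the same median, -0.159 (10.5% lower). Of them 379 (82.9%) were below 0 and 13 were called lower, with 0 called higher. Proximal 5q had a median of -0.081 over 63 genes and 5p one of -0.021 over 119 genes. Within each library, a gene's log2 CPM was also set against its mean over the 10 libraries. The median of these values over the other 457 distal genes was -0.112 to -0.086 in the 4 CDK7-targeted libraries and 0.048 to 0.069 in the 6 CDK7-intact libraries. For the 57 members it was -0.140 to -0.079 and -0.029 to 0.291. The CDK7-targeted and CDK7-intact libraries did not overlap in either set. With Empty vector at 96 h left out, the other distal genes then tested (476) had a median log2 fold change of -0.156, below the members' -0.110. Proximal 5q then had one of -0.053 and 5p one of -0.001. The libraries overlapped on proximal 5q (-0.120 to 0.005 and -0.068 to 0.213) and on 5p (-0.028 to 0.012 and -0.018 to 0.039).

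**Figure D2:**
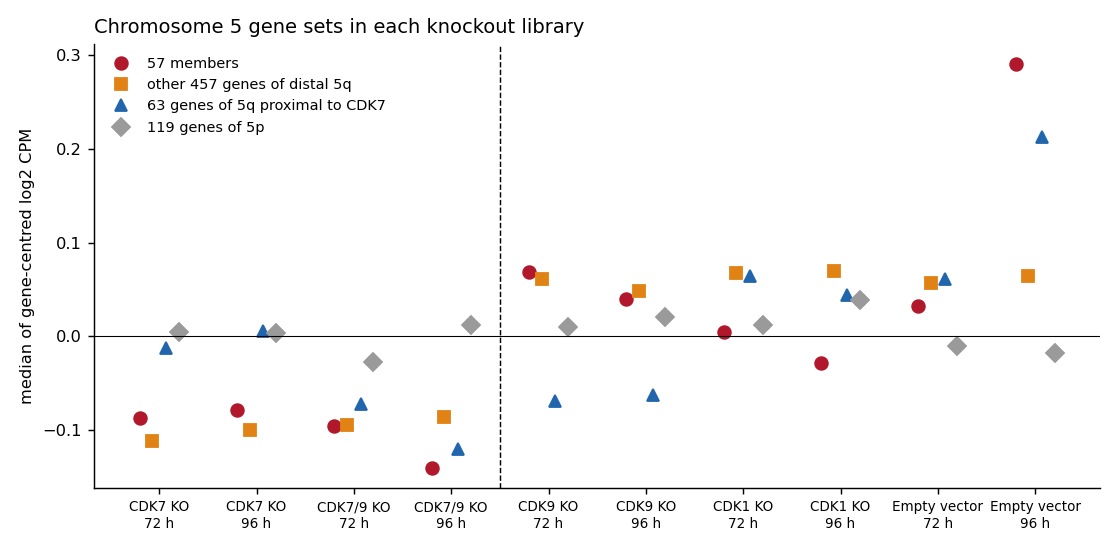
Median of log2 CPM, centred on each gene's mean over the 10 libraries (vertical axis), for the 57 members, the other 457 tested genes of distal 5q, 63 genes of proximal 5q and 119 genes of 5p, in each library, with the 4 CDK7-targeted libraries left of the dashed line. Both distal sets lie below -0.07 in the 4 CDK7-targeted libraries, and the members stand at 0.291 in Empty vector at 96 h.

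RASA1 and ARRDC3, the 2 members that passed the test, were lower by 20.1% and 30.1%. RASA1 (chr5:87267888-87391931, plus strand, 18.1 Mb beyond CDK7) encodes a GTPase-activating protein that switches RAS off. It stood at 97.8 and 85.8 CPM in CDK7 KO and 100.1 and 89.5 CPM in CDK7/9 KO, against 127 and 119 CPM in CDK9 KO, 112 and 101 CPM in CDK1 KO and 120 and 121 CPM in Empty vector, at 72 and 96 h. All 4 CDK7-targeted libraries lay below all 6 others, though CDK7/9 KO at 72 h and CDK1 KO at 96 h differed by less than 1 CPM. The log2 fold change was -0.32 ± 0.06 (edgeR BH-adjusted p = 0.0391). Without Empty vector at 96 h it was -0.30 ± 0.04 (edgeR BH-adjusted p = 3.00e-05). RASA1 overlaps CCNH, the gene of the cyclin partner of CDK7, over 73516 bases on the opposite strand, and CCNH was at -0.24 (edgeR BH-adjusted p = 0.270, and 0.0792 without Empty vector at 96 h). CCNH was named after its value was seen. Whether the counting used strand is not given in the sources used here, so reads of overlapping genes may not be separable.

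ARRDC3 (chr5:91368724-91383359, minus strand, 22.1 Mb beyond CDK7) encodes an arrestin-like adaptor that brings ubiquitin ligases to membrane receptors. It stood at 36.01 and 38.6 CPM in CDK7 KO and 33.3 and 39.8 CPM in CDK7/9 KO, against 43.9 and 46.1 CPM in CDK9 KO, 63.2 and 67.5 CPM in CDK1 KO and 38.9 and 61.9 CPM in Empty vector. The groups overlapped, since Empty vector at 72 h lay below CDK7/9 KO at 96 h. The log2 fold change was -0.52 ± 0.09 (edgeR BH-adjusted p = 0.0332), the lowest of the members, and -0.42 ± 0.05 without Empty vector at 96 h (edgeR BH-adjusted p = 1.33e-05). Its level was highest in the CDK1 KO libraries (0.39 over Empty vector, edgeR BH-adjusted p = 0.157). With Empty vector alone as the reference it was at -0.43 (edgeR BH-adjusted p = 0.0736), while RASA1 was at -0.38 (edgeR BH-adjusted p = 0.0442). Without any one of the 8 libraries other than Empty vector, neither gene passed, with edgeR BH-adjusted p of 0.0734 to 0.390 over both genes.

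The 3 members nearest to CDK7 lie within 0.2 Mb of it. None passed the test with all 10 libraries, and AK6 passed without Empty vector at 96 h. AK6 (chr5:69350984-69370013, minus strand), a nuclear adenylate kinase of small-subunit ribosome assembly, stood at 16.1 and 19.6 CPM in CDK7 KO and 17.2 and 18.7 CPM in CDK7/9 KO, against 22.2 and 20.4 CPM in CDK9 KO, 20.2 and 20.7 CPM in CDK1 KO and 21.9 and 31.7 CPM in Empty vector. The CDK7-targeted libraries all lay below the others (-0.34 ± 0.10, edgeR BH-adjusted p = 0.162, and -0.26 ± 0.07, edgeR BH-adjusted p = 0.0256, without Empty vector at 96 h). AK6 shares 5271 bases with TAF9 on its own strand, and TAF9, a subunit of the general transcription factor TFIID, was at -0.07 ± 0.09 (edgeR BH-adjusted p = 0.792). RAD17 (chr5:69369293-69414801, plus strand), which loads the 9-1-1 checkpoint clamp at damaged DNA, stood at 42.99 and 39.6 CPM in CDK7 KO and 41.8 and 40.6 CPM in CDK7/9 KO, against 50.3 and 49.8 CPM in CDK9 KO, 44.98 and 42.7 CPM in CDK1 KO and 43.2 and 59.2 CPM in Empty vector. Its groups overlapped at CDK1 KO 96 h. Its value was -0.22 ± 0.09 (edgeR BH-adjusted p = 0.288), and -0.13 without Empty vector at 96 h. MARVELD2 (chr5:69415065-69444330, plus strand), the tight junction protein tricellulin, was scarce, at 1.859 to 2.235 CPM in CDK7-targeted and 2.01 to 2.96 CPM in CDK7-intact libraries. Its value was -0.31 ± 0.15 (edgeR BH-adjusted p = 0.399), and -0.30 without Empty vector at 96 h.

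The nearest tested genes outside the list were CCDC125, CHCHD2P2 and TAF9 on the distal side. CCDC125, a coiled-coil protein gene, was at -0.20 ± 0.08 (edgeR BH-adjusted p = 0.287), and the pseudogene CHCHD2P2 had at most 0.615 CPM in every library and was at 0.32 ± 0.37. On the proximal side, MRPS36, CENPH and CCNB1 lie within 0.1 Mb of CDK7. MRPS36, a mitochondrial protein gene, was at -0.23 ± 0.07 (edgeR BH-adjusted p = 0.186) and the kinetochore gene CENPH at -0.42 ± 0.13 (edgeR BH-adjusted p = 0.178). CCNB1, which encodes the mitotic cyclin B1, stood at 261 and 240 CPM in CDK7 KO and 266 and 237 CPM in CDK7/9 KO, against 310 and 267 CPM in CDK9 KO, 405 and 356 CPM in CDK1 KO and 365 and 446 CPM in Empty vector. It was lower in every CDK7-targeted library than in all CDK7-intact ones and passed the test (-0.50 ± 0.08, edgeR BH-adjusted p = 0.0240). In CDK7 KO against Empty vector CCNB1 was at -0.70 ± 0.12, and in CDK7/9 KO against CDK9 KO at -0.20 ± 0.12. Neither value passed the test with all 10 libraries. In the fit without Empty vector at 96 h, MRPS36 was at -0.24, CENPH at -0.31 and CCNB1 at -0.42, and these 3 passed (edgeR BH-adjusted p = 0.0254, 0.0466 and 5.04e-08), while CCDC125, CHCHD2P2 and TAF9 did not. CENPH and CCNB1 were also called lower in CDK9 KO against Empty vector, where CDK7 was intact (-0.83 and -0.50, edgeR BH-adjusted p = 0.0294 and 0.0367). In that comparison without Empty vector at 96 h they were at -0.48 and -0.26 (edgeR BH-adjusted p = 0.0719 and 0.0122).

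Of the remaining members, XRCC4 and CETN3 had the lowest log2 fold changes. Neither passed the test with all 10 libraries, and both passed without Empty vector at 96 h. XRCC4, which holds DNA ligase IV at double-strand breaks, stood at 17.2 and 15.6 CPM in CDK7 KO and 13.4 and 15.0 CPM in CDK7/9 KO, against 20.8 and 17.2 CPM in CDK9 KO, 19.3 and 19.8 CPM in CDK1 KO and 18.7 and 32.0 CPM in Empty vector. The CDK7-targeted libraries were all lower, the closest being CDK7 KO at 72 h and CDK9 KO at 96 h, which differ by under 0.1 CPM (-0.47 ± 0.13, edgeR BH-adjusted p = 0.164, and -0.31 ± 0.08, edgeR BH-adjusted p = 0.0104, without Empty vector at 96 h). CETN3, a centrin of the centrosome, stood at 27.1 and 26.01 CPM in CDK7 KO and 21.6 and 21.3 CPM in CDK7/9 KO, against 28.03 and 26.1 CPM in CDK9 KO, 24.9 and 24.8 CPM in CDK1 KO and 34.5 and 56.9 CPM in Empty vector. Its groups overlapped, and its high value in Empty vector at 96 h weighs on the fold change (-0.39 ± 0.12, edgeR BH-adjusted p = 0.182, and -0.25 ± 0.06, edgeR BH-adjusted p = 0.00986, without that library).

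At the other end stood FER, FCHO2, RHOBTB3 and PPIP5K2. FER had 48.6 and 48.9 CPM in CDK7 KO and 40.3 and 39.7 CPM in CDK7/9 KO, against 42.8 and 48.5 CPM in CDK9 KO, 40.4 and 39.3 CPM in CDK1 KO and 47.1 and 42.5 CPM in Empty vector. The CDK7 KO libraries were the highest of the 10 and those of CDK7/9 KO among the lowest. FCHO2, a membrane-bending protein of clathrin pits, ran from 41.8 to 46.0 CPM in CDK7-targeted and 38.7 to 48.5 CPM in CDK7-intact libraries. RHOBTB3, a gene of the membrane traffic group, ran from 159 to 187 CPM and from 158 to 197 CPM. PPIP5K2, an inositol pyrophosphate kinase, ran from 69.4 to 85.1 CPM and from 70.9 to 110 CPM. The groups of these 4 genes overlapped, and their log2 fold changes were 0.03 ± 0.07, -0.03 ± 0.07, -0.03 ± 0.06 and -0.05 ± 0.09.

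**Figure D3:**
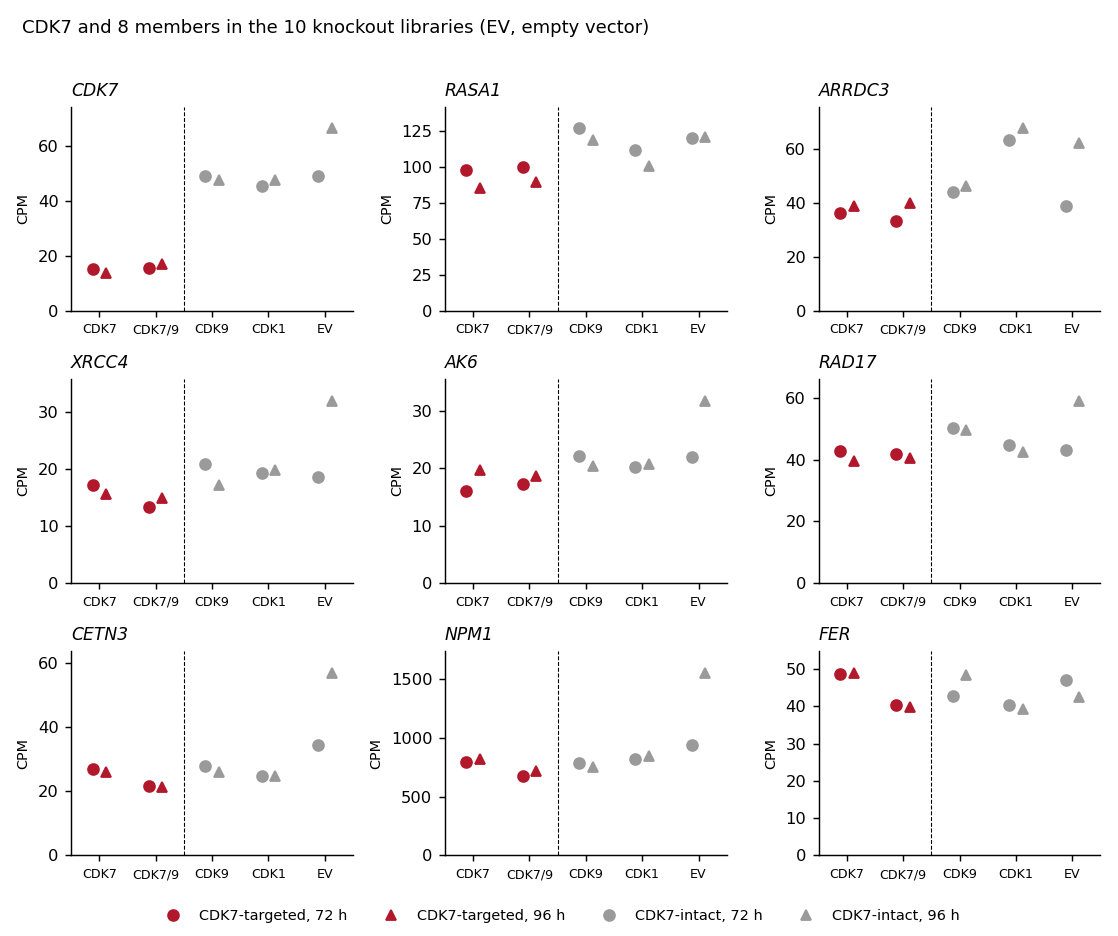
CPM (vertical axes, from 0) of CDK7 and 8 members in each library, by genotype, with circles for 72 h, triangles for 96 h, and the CDK7-targeted genotypes in red left of the dashed line. CDK7 is at 13.8 to 17.2 CPM in the 4 red points, RASA1, XRCC4 and AK6 are lower in all 4 without a gap of that size, and the triangle of Empty vector stands apart for XRCC4, AK6, CETN3 and NPM1.

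Grouped by role, the members had a median below 0 in every group, and each of the 2 calls fell in a different one. Genome maintenance had 4 members (RAD17, XRCC4, the mismatch repair gene MSH3 and the translesion polymerase gene POLK), all below 0, with a median of -0.18 and 0 called lower in edgeR, 2 of them at an unadjusted p under 0.05. MSH3 was at -0.12 ± 0.07 and POLK at -0.15 ± 0.07. The 6 members of ribosome assembly and translation, had a median of -0.19 and were all below 0. Of these, UTP15 and NSA2 of ribosome assembly were at -0.19 ± 0.09 and -0.18 ± 0.08, BTF3, of the nascent polypeptide complex, at -0.18 ± 0.08, and the release factor gene ETF1 at -0.11 ± 0.06. NPM1, the most distal member at 102 Mb beyond CDK7, stood at 798 and 824 CPM in CDK7 KO and 679 and 719 CPM in CDK7/9 KO, against 786 and 752 CPM in CDK9 KO, 825 and 847 CPM in CDK1 KO and 943 and 1552 CPM in Empty vector. Its groups overlapped and the value rests in part on Empty vector at 96 h (-0.30 ± 0.10, edgeR BH-adjusted p = 0.229, and -0.17 ± 0.04, edgeR BH-adjusted p = 0.00348, without it). NPM1 was given by library after its values were seen.

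The 7 members of the nucleus, chromatin and RNA had a median of -0.18 and were all below 0. LMNB1 was at -0.29 ± 0.09 (-0.20 ± 0.04 without Empty vector at 96 h), the chromatin remodeller gene CHD1 at -0.18 ± 0.07, the nuclear matrix gene MATR3 at -0.20 ± 0.09, the import receptor gene TNPO1 at -0.13 ± 0.06, the RNA helicase gene YTHDC2 at -0.13 ± 0.09 and BDP1, of the RNA polymerase III factor TFIIIB, at -0.09 ± 0.07. SSBP2, a single-stranded DNA binding cofactor present at 2.76 to 4.33 CPM in CDK7-targeted libraries, was at -0.32 ± 0.15. The 8 genes of ubiquitin, autophagy and proteolysis were all below 0 with a median of -0.21. UBE2D2, a ubiquitin-conjugating enzyme, stood at 92.0 and 103.8 CPM in CDK7 KO and 90.7 and 97.5 CPM in CDK7/9 KO, against 106.9 to 134 CPM in the CDK7-intact libraries, which it did not reach (-0.28 ± 0.06, edgeR BH-adjusted p = 0.0863, and -0.26 ± 0.04, edgeR BH-adjusted p = 0.000455, without Empty vector at 96 h). SKP1, the core subunit of SCF ubiquitin ligases, was at -0.24 ± 0.11, the autophagy genes ATG12 and ATG10 at -0.21 ± 0.08 and -0.09 ± 0.14, the calpain inhibitor gene CAST at -0.14 ± 0.07 and the ubiquitin ligase gene PJA2 at -0.11 ± 0.07. WDR41, a partner of C9ORF72, was at -0.21 ± 0.08.

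The 8 genes of signalling and scaffolds, RASA1 and FER among them, had a median of -0.18, and 7 were below 0. The casein kinase gene CSNK1G3 was at -0.25 ± 0.10, the synaptic scaffold gene HOMER1 at -0.24 ± 0.08, APC at -0.12 ± 0.06 and HINT1, a nucleotide hydrolase, at -0.11 ± 0.06. IQGAP2, a scaffold of the cytoskeleton, had few reads, at 0.301 to 0.595 CPM in CDK7-targeted and 0.176 to 1.05 CPM in CDK7-intact libraries, and its -0.34 ± 0.34 is within its own error. Of the cytoskeleton and junction genes, TBCA, a tubulin folding cofactor, was at -0.23 ± 0.10. The 7 genes of mitochondria, peroxisomes and redox were all below 0 with a median of -0.14, and the narrowest range, -0.16 to -0.10. They hold MCCC2 of leucine breakdown (-0.16 ± 0.06), the mitochondrial ribosome gene MRPS27 (-0.15 ± 0.06), PTCD2 of mitochondrial RNA processing (-0.14 ± 0.08), the mitochondrial elongation factor gene GFM2 (-0.10 ± 0.07), MTX3 of the outer membrane (-0.11 ± 0.07), the peroxisomal enzyme gene HSD17B4 (-0.15 ± 0.08) and GLRX, a glutaredoxin (-0.10 ± 0.07).

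The 10 genes of membrane traffic and the secretory pathway had the median nearest to 0, -0.11, and were all below 0. TMED7, a cargo receptor of early secretion, was at -0.17 ± 0.08 and SNX2 of the retromer at -0.15 ± 0.06. AP3B1, a subunit of the AP-3 coat, was at -0.14 ± 0.06 and ERAP1, which trims peptides for presentation, at -0.16 ± 0.09. REEP5, which shapes the endoplasmic reticulum, was at -0.11 ± 0.07, and the Golgi mannosidase gene MAN2A1 at -0.10 ± 0.06. PAM, which amidates peptide hormones, was at -0.09 ± 0.06 and the carrier membrane gene SCAMP1 at -0.08 ± 0.09. Of the last 4, LYSMD3 was at -0.31 ± 0.09, AGGF1, an angiogenic factor, at -0.23 ± 0.11, ANKRA2, an ankyrin repeat protein gene, at -0.21 ± 0.09 and GIN1 at -0.15 ± 0.12. With all 10 libraries, no member but RASA1 and ARRDC3 passed the edgeR test over all genes. When Empty vector at 96 h was left out, AK6, MCCC2, MRPS27, TNPO1, HOMER1, XRCC4, CETN3, LYSMD3, ERAP1, SNX2, LMNB1, HINT1, UBE2D2 and NPM1 passed as well, with log2 fold changes of -0.31 to -0.12. The medians of the role groups then ran from -0.25 (cytoskeleton and junctions) to -0.09 (membrane traffic), with 1 to 3 members called lower in each. Of the 57 members, 28 overlap another tested gene.

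In 8 of 57 members all 4 CDK7-targeted libraries lay below all 6 CDK7-intact ones, against 1.13% of all genes tested. These were AK6, MCCC2, UTP15, XRCC4, RASA1, CAST, SKP1 and UBE2D2, named after their values were seen. Without Empty vector at 96 h there were also 8, against 1.78% of all genes. Of the other distal 5q genes 41 of 457 were separated in this way, and with the members distal 5q held 25.9% of all 189 separated genes but 3.06% of the genes tested. On proximal 5q 2 of 63 genes and on 5p 1 of 119 were separated.

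With all 10 libraries, the medians of distal 5q showed no steady trend with the distance from CDK7. Over all tested genes, members included, the median log2 fold change was -0.19 within 5 Mb beyond CDK7 (30 genes), -0.16 from 5 to 30 Mb (99 genes), -0.18 from 30 to 60 Mb (77 genes) and -0.16 beyond 60 Mb (308 genes). Members alone had medians of -0.17, -0.18, -0.13 and -0.22 in these bins, from 12, 24, 15 and 6 genes. Without Empty vector at 96 h the medians over all tested genes were -0.117, -0.118, -0.138 and -0.162, lower in each bin farther out. Over the members they were then -0.13, -0.12, -0.08 and -0.13, with no steady trend. Differences between these bins were not tested.

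CDK7 KO against Empty vector and CDK7/9 KO against CDK9 KO share no library, so the members can be followed in each. In CDK7 KO against Empty vector their median was -0.295, and 54 of 57 were below 0, against 51% of all genes. EdgeR called 0 of them lower, against 0.00596% of all genes, while 26 were lower at an unadjusted p under 0.05, beside 1439 of all 16783 genes. DESeq2 called 3 members, CETN3, LMNB1 and NPM1, of 152 genes in all. In CDK7/9 KO against CDK9 KO the median was -0.158, and 55 of 57 were below 0, against 49.9% of all genes. EdgeR called 0 lower there (against 0.00596% of all genes), with 6 at an unadjusted p under 0.05, beside 219 of all 16783 genes. DESeq2 called 0 members there, of 4 genes in all. The single gene that edgeR called lower in each comparison was CDK7. In all, 52 of 57 members were below 0 in both comparisons, against 29.9% of all genes tested, and 302 of the other 457 distal genes (66.1%).

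The size of the median against Empty vector depended on its 96 h library. At 72 h the median of the members, as differences of log2 CPM between 2 libraries with no replicate, was -0.128 in CDK7 KO over Empty vector, with 46 of 57 below 0. At 96 h it was -0.406, with 55 of 57 below 0. In CDK7/9 KO over CDK9 KO it was -0.173 at 72 h (50 of 57) and -0.139 at 96 h (53 of 57). Without Empty vector at 96 h, CDK7 KO against Empty vector gave a median of -0.121 with 47 of 57 below 0 and 4 called lower in edgeR, against 0.678% of all genes. In CDK7/9 KO against CDK9 KO the median was then -0.160 with 55 of 57 below 0 and 2 called lower, against 0.182%, and 46 of 57 were below 0 in both comparisons, against 30.0% of all genes.

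**Figure D4:**
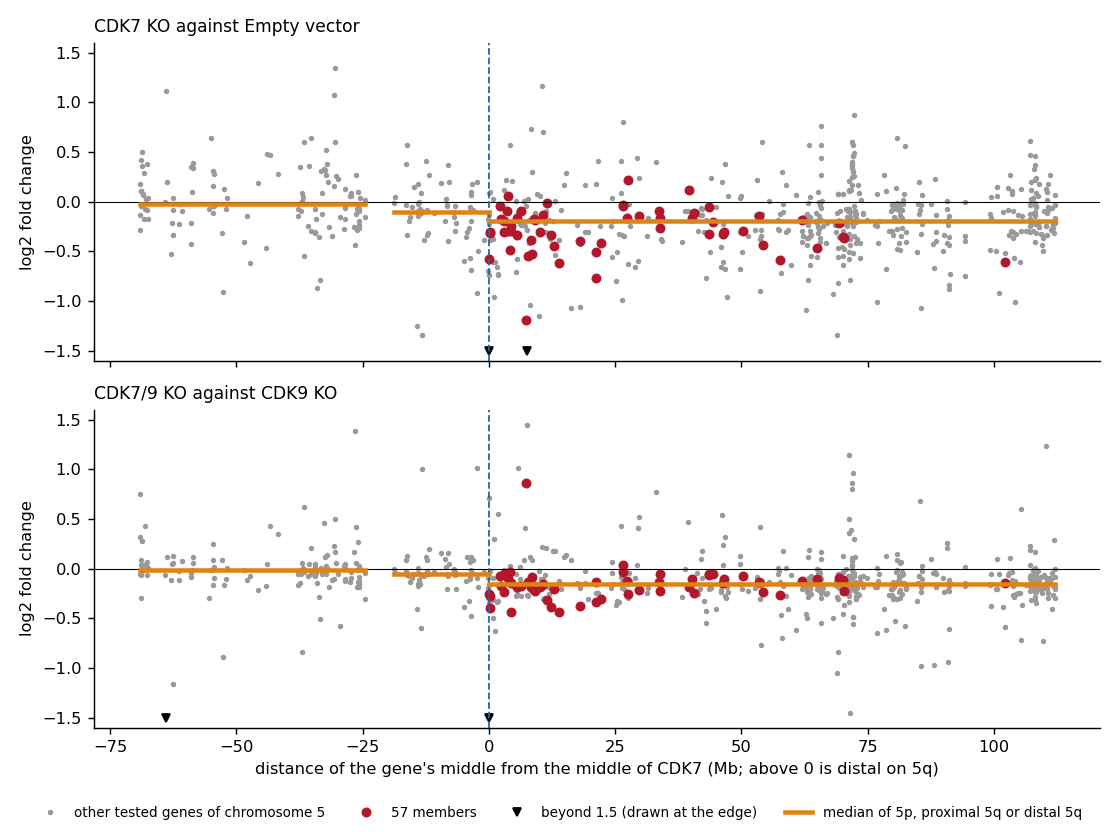
Log2 fold change (vertical axes) of the tested genes of chromosome 5 by distance from CDK7 in Mb (horizontal axis, distal to the right), in the 2 comparisons that share no library, with the members in red and orange lines at the medians of 5p, proximal 5q and distal 5q. The distal medians are -0.191 in CDK7 KO against Empty vector and -0.153 in CDK7/9 KO against CDK9 KO, below those of proximal 5q (-0.101 and -0.057) and 5p (-0.026 and -0.017). Without Empty vector at 96 h (not drawn) the distal medians were -0.153 and -0.157, and those of proximal 5q -0.014 and -0.059.

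The CDK1 and CDK9 knockouts, which target chromosomes 10 and 9, show what the members did with CDK7 intact. These comparisons share the Empty vector libraries with CDK7 KO against Empty vector, so their values stand beside it and not as separate evidence. In CDK1 KO against Empty vector the members' median was -0.160 and 48 of 57 were below 0, against 47.2% of all genes. EdgeR called 0 of them lower (against 0.0298% of all genes). With an unadjusted p under 0.05, 15 were lower and 2 higher, beside 1821 lower and 1960 higher of all 16783 genes. In CDK9 KO against Empty vector the median was -0.144, 39 of 57 were below 0 (against 50.4%), and 3 members were called lower, against 3.82% of all genes. These were CETN3 (-0.74 ± 0.18, edgeR BH-adjusted p = 0.0340), NPM1 (-0.68 ± 0.16, edgeR BH-adjusted p = 0.0311) and GLRX (-0.40 ± 0.10, edgeR BH-adjusted p = 0.0446). Of all knockout libraries, Empty vector at 96 h held the highest levels of CETN3 and NPM1, so their values rest in part on it. The other 457 distal genes were near 0, at 0.004 and -0.016. Without Empty vector at 96 h the members' medians were -0.061 in CDK1 KO and 0.020 in CDK9 KO, with 36 and 27 of 57 below 0. They stand beside -0.121 and 47 of 57 in CDK7 KO. The members' medians in all 3 knockouts were thus nearer to 0 with that library left out.

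Across the genome, distal 5q had the lowest median of 44 chromosome arms and part-arms with at least 20 tested genes in each comparison of CDK7-targeted libraries. Over its 514 tested genes the median was -0.159 in CDK7-targeted against CDK7-intact, and the next lowest were proximal 5q (-0.081) and 12p (-0.042). It was also lowest in the 4 comparisons of libraries of the same time, at -0.160 and -0.229 in CDK7 KO over Empty vector and -0.144 and -0.141 in CDK7/9 KO over CDK9 KO at 72 and 96 h. It ranked 13 from the lowest in CDK1 KO against Empty vector (-0.0204) and 21 in CDK9 KO against Empty vector (-0.0274). In CDK1 KO the lowest was 10q distal to CDK1 (-0.219). Proximal 5q was second lowest in CDK1 KO and in CDK9 KO against Empty vector too (-0.108 and -0.147), and lowest in CDK9 KO over Empty vector at 96 h (-0.259). Proximal 5q without Empty vector at 96 h was at -0.014 in CDK7 KO, -0.017 in CDK1 KO and -0.147 in CDK9 KO, each against Empty vector. The part of 9q distal to CDK9 was lowest in CDK9 KO over Empty vector at 72 h (-0.176) but not at 96 h, and it was lowest in CDK9 KO against Empty vector without Empty vector at 96 h.

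**Figure D5:**
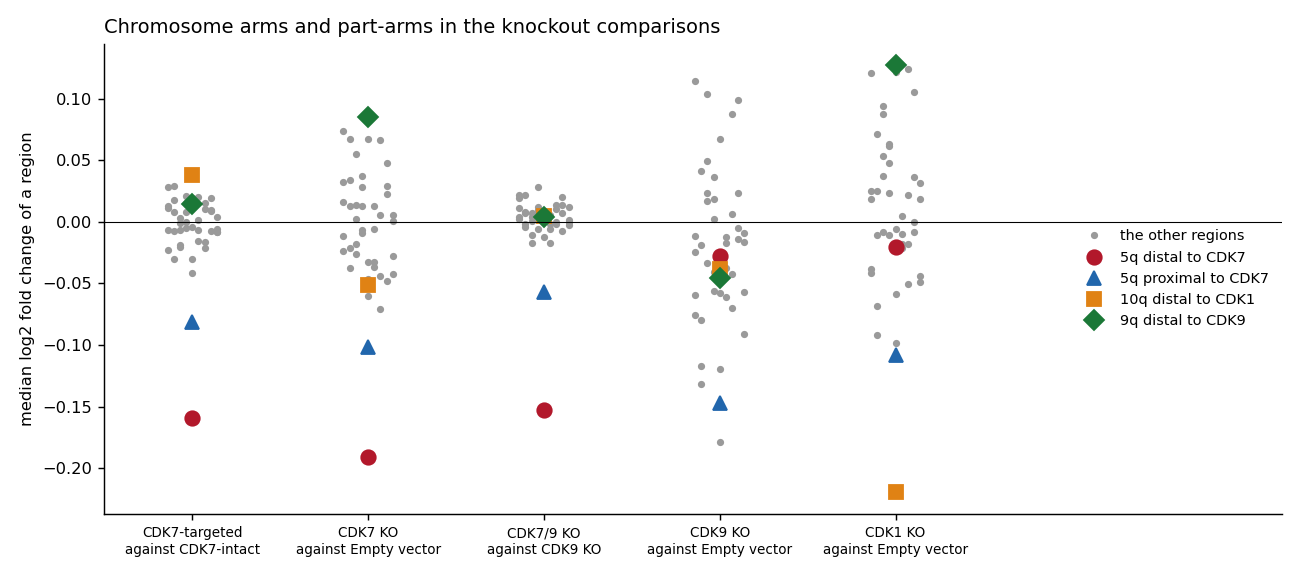
Median log2 fold change (vertical axis) of each of 44 chromosome arms or part-arms with at least 20 tested genes, in 5 comparisons of the knockout libraries. Distal 5q (red circle) is lowest in the 3 comparisons of CDK7-targeted libraries, at -0.159, -0.191 and -0.153, and lies among the other regions in CDK9 KO and CDK1 KO against Empty vector, where 10q distal to CDK1 (orange square) is lowest for CDK1 KO at -0.219.

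Whether the effect differed with CDK9 knocked out or with time was tested directly. The difference between CDK7/9 KO over CDK9 KO and CDK7 KO over Empty vector had a median of 0.065 over the members. EdgeR called 0 members lower (against 0% of all genes) and 0 higher, with 1 lower and 2 higher at an unadjusted p under 0.05. The difference between 96 and 72 h had a median of -0.081, with 0 members called in edgeR (against 0% of all genes) and 0 at an unadjusted p under 0.05. These tests had 618 and 256 genes at an unadjusted p under 0.05 in all, and a p that misses the threshold does not show that the effects were equal.

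The treated libraries of the series, from MDA-MD-231 cells and MDA-MD-468, another breast cancer line, show the members without a CDK7 knockout. SY200, V50 and SY200/V50, agents that the labels name without a target or dose, at 3, 6 and 12 h were set against the 4 DMSO and parental libraries at 0 h, as the mean of the times (22 libraries, line as a block, 18911 genes tested). Each line, agent and time had 1 library, so p-values rest largely on how far the responses of the lines differ. The controls had no library at 3, 6 or 12 h, so agent and time cannot be told apart. The CDK7 mRNA itself was at -0.61, -0.73 and -1.63 with SY200, V50 and SY200/V50 (edgeR BH-adjusted p = 0.132, 0.0185 and 1.05e-05). By line and time, the members' median ran from -0.160 to 0.285. With SY200 their median was -0.020, and edgeR called 0 lower (against 1.02% of all genes) and 0 higher (against 0.962%). At an unadjusted p under 0.05, 7 were lower and 5 higher, beside 1680 lower and 1516 higher of all 18911 genes. With V50 the members' median was 0.008, with 7 called lower (against 11.9% of all genes) and 13 higher (against 10.4%). With SY200/V50 it was 0.028, with 15 called lower (against 24.2% of all genes) and 18 higher (against 24%).

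Single members changed in both directions with these agents, on the log2 scale. CHD1 fell by 2.35 ± 0.28 with SY200/V50 (edgeR BH-adjusted p = 5.73e-06), UTP15 fell by 1.64 ± 0.17 (edgeR BH-adjusted p = 1.48e-06) and APC fell by 1.28 ± 0.19 (edgeR BH-adjusted p = 5.02e-05). RASA1 fell by 0.84 ± 0.20 with V50 (edgeR BH-adjusted p = 0.00670) and by 0.89 ± 0.20 with SY200/V50 (edgeR BH-adjusted p = 0.00128). ARRDC3 fell by 1.13 ± 0.28 with SY200/V50 (edgeR BH-adjusted p = 0.00316). These members were named after their values were seen. The translation factor gene BTF3 was called higher with V50 (0.58 ± 0.14, edgeR BH-adjusted p = 0.00670), a direction that turns with the scaling. Scaled to mitochondrially encoded mRNAs, 0 of the 13 and 0 of the 18 members called higher were above 0, and the median of all genes was -0.44, -0.92 and -1.33 with SY200, V50 and SY200/V50, beside -0.46, -0.90 and -1.40 for the members. Under that scaling the medians of all genes were thus shifted about as far as the members'. The share of all genes called lower under it was not counted, so calls of members under it are not given.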

How the data were processed

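The authors deposited raw gene counts, in whole numbers, from QuantSeq FWD libraries of poly(A) RNA, per the labels' protocols. Per the submitters' processing notes, STAR 2.7.10a, FastQC and the build GRCh38 were used. How reads were counted, on which strand and with which annotation, and whether molecules were tagged, is not given in the sources used here. Positions came from GENCODE release 29 by name or ID (40283 of 59428 rows placed), and that of MATR3 from RefSeq. Of the 16783 genes tested, 91% had a position.

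Genes of the 10 knockout libraries were kept by filterByExpr (minimum count 10, minimum total 15), scaled by TMM and tested with edgeR 4.0.16 in R 4.3.3 (quasi-likelihood F test, time and genotype as terms, 4 residual degrees of freedom), with BH adjustment over all genes and 0.05 as the threshold. The second parental library was not used in a test. Log2 CPM used a prior count of 2, and ± is the SE implied by the F statistic. The fit was run on simulated counts with known changes. These had a fixed spread, no time effect and no library that stood apart, so the run checks the calculation and not the calls given here. Genotypes carry no replicate numbers that pair libraries; the time is the block. The members, lists and role groups were chosen with earlier results of these data known. Library values were given for members past the threshold, the 3 nearest to CDK7 and the 4 at each end of the main comparison, and for CDK7, CDK9 and CDK1; of the 3 tested neighbours on each side of CDK7, CCNB1 was given by library and the others as fold changes. NPM1 and UBE2D2 were given by library outside that rule, after their values were seen. The alternatives were DESeq2 1.42.0 with the same design, its size factors within edgeR, TMM factors without chromosome 5, scaling to mitochondrial mRNAs, no filter, a mean of at least 10 CPM, no time block, Empty vector alone as the reference, additive terms for the knocked-out genes, and leaving out each library. CDK1 KO and CDK9 KO as the reference, and the regions, bins, neighbours and role groups without Empty vector at 96 h, were chosen after seeing the data.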

Additional observations from a re-analysis of the deposited data

How the results depend on the processing

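No paired analysis was possible because each genotype has 1 library per time and no replicate numbers; time was the block. The members' median stayed below 0 in the 3 comparisons of CDK7-targeted libraries under each alternative, whereas counts of calls varied. In CDK9 KO against Empty vector it was 0.020 without Empty vector at 96 h, against -0.144 with it. In CDK7-targeted against CDK7-intact, the 113 genes past the threshold became 12 with mitochondrial scaling, 664 with no filter, 74 with no time block, 214 with DESeq2, 381 with Empty vector alone as the reference, 7 with additive terms, 1602 with CDK1 KO and CDK9 KO as the reference, and 11 to 4384 without 1 library. The 2 members called lower became 0, 10, 0, 3, 6, 0 and 13 in the same order, and 0 to 41 without 1 library. They were 41 without Empty vector at 72 h, 16 without Empty vector at 96 h and 0 without any other library. Leaving out 1 Empty vector library leaves the other alone, so that genotype then adds nothing to the estimated spread.

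The members' median was -0.328 with mitochondrial scaling, -0.303 against Empty vector alone, and -0.226 to -0.110 without 1 library. Relative to all genes (-0.152) it was -0.300 against Empty vector alone and -0.213 to -0.111 without 1 library. The other distal genes, at -0.155 relative to all genes, were at -0.140 with no filter, -0.178 with a mean of at least 10 CPM, -0.176 against Empty vector alone and -0.174 to -0.156 without 1 library. The 56 members below 0 were 54 to 57 without 1 library. All distal 5q (-0.159) was at -0.178 with a mean of at least 10 CPM, -0.328 with mitochondrial scaling and -0.148 without Empty vector at 96 h.

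In CDK7 KO against Empty vector, the 4 genes called became 2 with TMM factors without chromosome 5, 1 with mitochondrial scaling, 996 with no filter, 2 with a mean of at least 10 CPM, 152 with DESeq2 and 1 to 6239 without 1 library. The 0 members called lower became 15 with no filter, 3 with DESeq2 and 0 to 37 without 1 library. Their median was -0.617 with mitochondrial scaling and -0.445 to -0.121 without 1 library, -0.418 to -0.120 relative to all genes, with 47 to 55 below 0. In CDK7/9 KO against CDK9 KO, the 1 gene called became 0 with mitochondrial scaling, 18 with no filter, 2 with no time block, 4 with DESeq2 and 0 to 76 without 1 library. The 0 members called lower became 0 to 2 without 1 library, where their median was -0.201 to -0.102, -0.199 to -0.102 relative to all genes, with 47 to 56 below 0. With SY200/V50 the members' median of 0.0279 became -1.40 with mitochondrial scaling. The cause of these changes was not tested. At 16985219 or more counts a library, scarce members such as IQGAP2 have wide errors.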
